A study of Capra hircus with 2 samples.

Results

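The goat miRNAs numbered 1000 or higher are the later-named part of the goat miRNA catalogue. The rule for them uses the name and no measured value: every annotated entry of the deposited comparison table whose number is 1000 or more, any letter or arm, apart from miR-1185. This gave 23 mature miRNAs from 18 precursors, out of 314 annotated miRNAs and 590 listed miRNAs in all. The study sequenced small RNA of natural killer (NK) cells from female goats. The uNK group is 1 library of NK cells separated from the uterus, and the pNK group is 1 library of NK cells separated from peripheral blood. Beyond this separation the labels name no treatment, and they state neither breed, age nor reproductive stage of the goats, nor how many were pooled, nor which markers were used to separate the cells.

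A miRNA is cut from a hairpin precursor, and either arm of the hairpin (5p or 3p) can be loaded into an Argonaute protein, where bases near its start pair with target mRNAs. Numbers were given to miRNAs in order of discovery, so that the high numbers mix conserved miRNAs that were found late, often because they are scarce, with miRNAs known only from some lineages. In ruminants the latter include the miR-2284 family, described in cattle as a large group of related copies, and several miRNAs of the imprinted DLK1-DIO3 region that were first named in sheep. The mature sequences of these miRNAs were not used here, so neither seeds nor near-identical copies were compared.

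With 1 library per group there is no replicate check and no test between the groups. Levels are reads per 1000000 reads of the library (RPM), with library totals of about 30063449 reads for pNK and 31780925 for uNK implied by the deposited, rounded values. Mature miRNAs are of nearly equal length, so RPM values were compared between miRNAs without a term for length. Intervals in parentheses are exact 95% Clopper-Pearson intervals on the reads and cover counting error only. The table lists only miRNAs that its authors called different. In a bulk library, fewer cells of a type and less RNA per cell cannot be told apart.

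Marker miRNAs of other cell types differed strongly between the libraries. The 31 listed miRNAs of 7 marker lists each went one way within their list. The lymphocyte markers miR-150 and miR-155 (3 of 3 listed lower in uNK) summed to 20518 RPM in the pNK library and to 186 RPM in the uNK library, and the myeloid marker miR-223 (both arms lower) to 28632 and 21.1 RPM. The smooth muscle and stromal markers (11 of 11 higher) summed to 12889 RPM in pNK but to 191215 RPM in uNK, the epithelial markers (5 of 5 higher) to 257 and 3592 RPM, and the muscle markers (4 of 4 higher) to 107 and 1329 RPM. The endothelial marker miR-126 (both arms higher) summed to 1769 and 10555 RPM, and the red cell markers (4 of 4 higher) to 3258 and 9817 RPM. No listed marker was at 0 in either library. The lymphocyte markers, which NK cells share, were thus scarce in the library labelled uNK. The part of cell composition in the results that follow was not tested.

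Of the 23 miRNAs, 8 were higher and 15 lower in uNK by the direction in the authors' deposited table. Over all 590 listed miRNAs, 38% were higher and 62% lower. Over the other 291 annotated miRNAs, 55.7% were higher and 44.3% lower. The high-numbered miRNAs therefore divided much like the whole table, in which predicted miRNAs are many, and had a larger share of lower members (65.2%) than the other annotated miRNAs. Their median log2 value, computed on RPM plus 1, was -1.34, beside -0.74 over all listed miRNAs and 0.67 over the other annotated ones. Without the added 1 RPM, and with the 2 miRNAs at 0 reads in a library set at their bound, the median was -2.53. Among miRNAs with at least 100 reads in the higher library, 10 of 16 high-numbered miRNAs were lower, against 45% of 238 other annotated miRNAs. A miRNA passes this minimum through the library where it is high, so these counts are a description.

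Together the 23 miRNAs were a small part of the small RNA. They counted 40323 reads in pNK and 7210 in uNK, or 1341 and 227 RPM, which is 0.282% and 0.0607% of the reads of listed miRNAs. Their summed level was 5.91-fold lower in uNK (5.77 to 6.06), while the summed level of the other annotated miRNAs was 1.22-fold lower. Without miR-1388-3p the ratio of summed levels, uNK over pNK, was 0.266 in place of 0.169. Levels ranged from 0 to 594 RPM in pNK and from 0 to 65.7 RPM in uNK. The median level of a high-numbered miRNA was 2.99 RPM for pNK and 2.86 RPM for uNK, below the medians of the other annotated miRNAs, at 12.8 and 16.2 RPM. At least 10 RPM was reached by 8 of the 23 in pNK and by 6 in uNK.

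**Figure D1:**
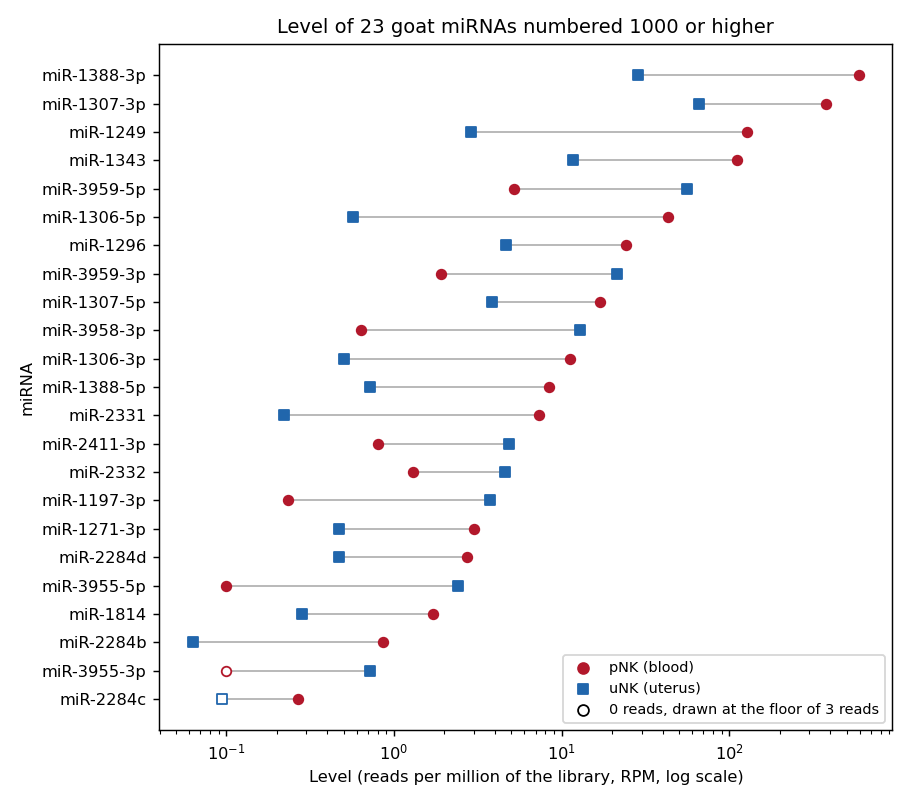
Level of each of the 23 miRNAs in the pNK library (circles) and the uNK library (squares), in RPM on a log axis, ordered by the higher of the 2 levels. The 4 most abundant, led by miR-1388-3p at 594 RPM in pNK, are all higher in pNK, and miR-3959-5p at 55.9 RPM is the most abundant of those higher in uNK; open symbols mark 0 reads.

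The directions differed with the number in the name. Of the 12 miRNAs numbered from 1000 to under 2000, 11 were lower in uNK and 1, miR-1197-3p of the DLK1-DIO3 region, was higher. The 2 listed arms of miR-1185, which lies in the same region and is left out by the rule, were both higher. Of the 6 numbered from 2000 to under 3000, 4 were lower and 2 higher. All 5 numbered 3000 or above were higher, and all 5 belong to the DLK1-DIO3 region. Among the annotated miRNAs with smaller numbers, 50 of 66 numbered under 100 were lower, 67 of 104 numbered from 100 to under 300 were higher and 72 of 109 numbered from 300 to under 1000 were higher. The groups are small and some of their entries are arms of one precursor or neighbours in one cluster, so these counts are not counts of independent genes. On either side of the number 1000, the nearest listed entries went in different directions. miR-877-5p and miR-877-3p, just below, were lower in uNK, with pNK and uNK levels of 96.0 and 27.6 RPM for the 5p arm and 1.60 and 0.126 RPM for the 3p arm. miR-1197-3p, just above after miR-1185, was higher. The next listed entries outward reversed this. Below, miR-874-3p (9.95 RPM in pNK and 62.4 RPM in uNK) and miR-874-5p were higher, and above, miR-1249 was lower. The entries around 1000 thus showed no single change of direction.

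**Figure D2:**
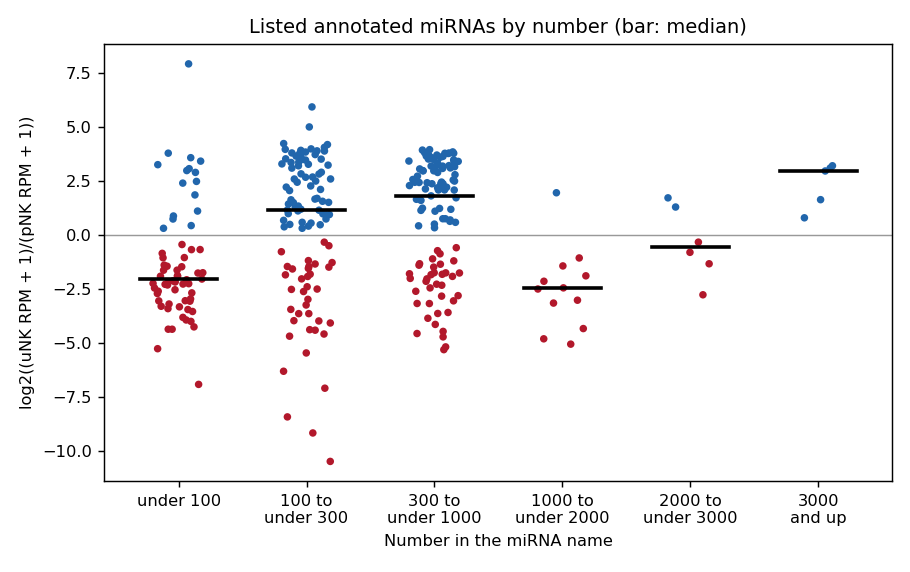
Each point is an annotated miRNA of the table, placed by the number in its name (horizontal) and by log2((uNK RPM + 1)/(pNK RPM + 1)) (vertical), and bars are medians. The let-7 entries and the 2 entries of miR-1185 are left out. The medians are -2.48 for numbers from 1000 to under 2000, -0.58 from 2000 to under 3000 and 2.95 for 3000 and above.

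A list of high-numbered miRNAs known beyond ruminants, called conserved here, was lower in uNK. miR-1197, which is also known beyond ruminants but is kept on the DLK1-DIO3 list, was higher. The conserved list held 18 names, of which 7 were in the table with 10 mature miRNAs, and all 10 were lower. Over all 590 listed miRNAs 62% were lower, and over the 291 annotated miRNAs not numbered so high 44.3%. The list was chosen with earlier results of these data known, so the count is a description. Their median log2 value on RPM plus 1 was -2.77. Their summed level was 1318 RPM in pNK but 119 RPM in uNK, 11.0-fold lower (10.7 to 11.4). They made up nearly all of the high-numbered reads in pNK, where the 5 most abundant entries, all of this list, took 93.5% of them (93.3 to 93.8%).

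miR-1388-3p, from a precursor that lies next to UCKL1 (a uridine-cytidine kinase-like gene), was the most abundant of the 23 in pNK. It had 17860 reads in pNK and 904 in uNK, or 594 and 28.4 RPM, and was 20.9-fold lower in uNK (19.5 to 22.4). Among the annotated miRNAs of the table it stood 46th by reads in pNK and 132nd in uNK. Its 5p arm, which is the scarcer one, had 254 and 23 reads and was 11.7-fold lower (7.61 to 18.8). Both arms were thus lower, the interval of the 3p arm lying just above that of the 5p arm.

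miR-1307-3p was the second in pNK and the first in uNK. Its precursor lies in USMG5, a gene for a small subunit of the mitochondrial ATP synthase. It had 11368 reads in pNK and 2087 in uNK, or 378 and 65.7 RPM, and was 5.76-fold lower in uNK (5.50 to 6.04). The 5p arm had 512 and 122 reads and was 4.44-fold lower (3.63 to 5.45). Each arm of miR-1307 was therefore lower by less than the same arm of miR-1388. miR-1307-3p took 28.2% of the high-numbered reads in pNK and 28.9% in uNK, whereas miR-1388-3p took 44.3% and 12.5%.

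miR-1249, whose precursor lies in KIAA0930, had 3837 reads in pNK and 91 in uNK, or 128 and 2.86 RPM. It was 44.6-fold lower in uNK (36.2 to 55.5). miR-1343 lies in PDHX, which encodes a component of the pyruvate dehydrogenase complex. It had 3354 and 369 reads, or 112 and 11.6 RPM, and was 9.61-fold lower (8.63 to 10.7). The 2 miRNAs were close in pNK, and miR-1343 was the more abundant in uNK.

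miR-1306-5p had the largest fold of the 23. In human its gene lies in DGCR8, which encodes the partner of Drosha in the nuclear cutting of miRNA precursors; in the goat gene table it is on an unplaced sequence. Its 5p arm counted 1292 reads in pNK but 18 in uNK, or 43.0 and 0.566 RPM, and was 75.9-fold lower (47.8 to 128). The 3p arm had 338 and 16 reads and was 22.3-fold lower (13.6 to 39.5). By fold, miR-1306-5p stood 9th and miR-1249 14th among the 117 annotated miRNAs that were lower in uNK with at least 100 reads in pNK or uNK.

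miR-1296 lies in JMJD1C, a gene of the histone demethylase family, and had 724 reads in pNK and 148 in uNK. It was 5.17-fold lower in uNK (4.33 to 6.21). miR-1271-3p lies in ARL10, a gene for a small GTPase-like protein, and had 90 and 15 reads. Its fold of 6.34 had a wide interval (3.65 to 11.8). Over the 10 high-numbered miRNAs that were lower with at least 100 reads, the median fold was 16.3, beside 8.88 over the 107 other annotated miRNAs of that kind. Their folds ran from 4.44 to 75.9. These miRNAs passed the minimum of 100 reads through pNK, where they are high, and the medians are given as a description.

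**Figure D3:**
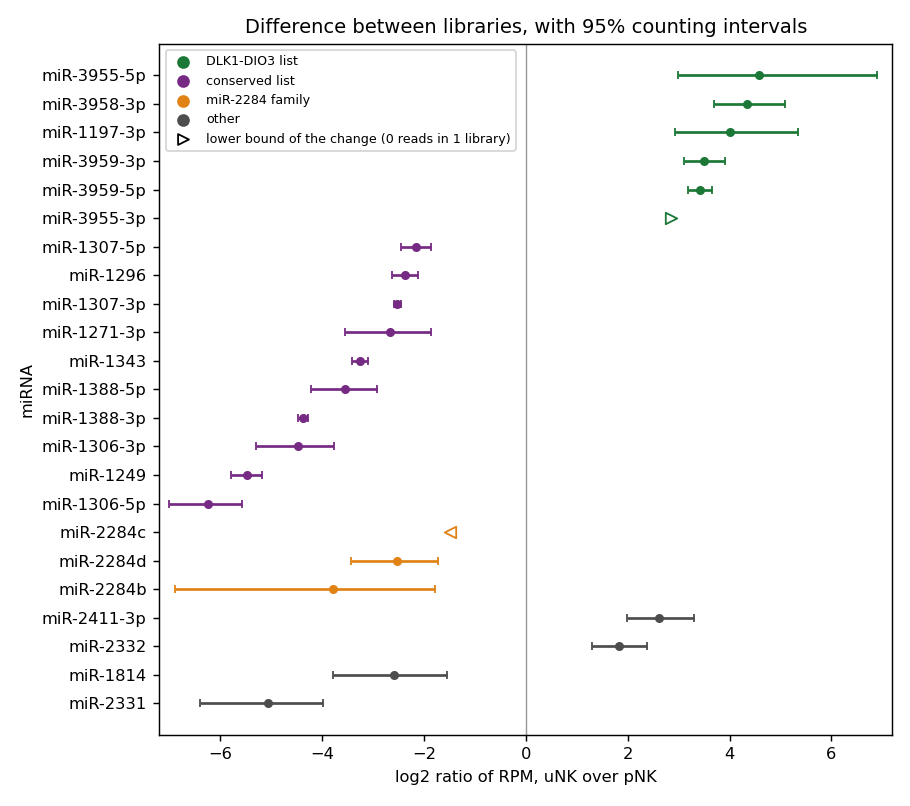
log2 ratio of RPM, uNK over pNK, for the 23 miRNAs by list, with exact 95% counting intervals as bars. The 10 conserved miRNAs and the 3 of the miR-2284 family lie below 0 and the 6 of the DLK1-DIO3 list above it; triangles are bounds for the 2 miRNAs with 0 reads in a library.

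Of the ruminant miR-2284 family, 3 copies were listed and all 3 were lower in uNK, at low levels. Over all 590 listed miRNAs 62% were lower, so a count of 3 says little about the family. miR-2284d lies in DOCK1, which encodes an activator of the GTPase Rac, and had 82 reads in pNK and 15 in uNK, a 5.78-fold lower level (3.31 to 10.8). miR-2284b, in FRMPD4, a gene for a scaffold protein of synapses, had 26 and 2 reads, a ratio of 13.7 (3.44 to 119). miR-2284c had 8 reads in pNK but 0 in uNK and was at least 2.82-fold lower, taking 3 reads per library as the floor. The exact interval of its fold, which also covers the counting error of the 8 reads, starts lower, at 1.80. Its q-value of 0.000492 in the authors' deposited table was the largest of the 23. Family copies are close in sequence and how reads were shared out between them is not stated, so single copies are uncertain. The 3 together had 116 and 17 reads, or 3.86 and 0.535 RPM, a 7.21-fold lower summed level (4.32 to 12.8).

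The remaining 4 miRNAs outside the DLK1-DIO3 region were mixed. miR-2331, which lies in RAD51D (a gene of DNA repair by recombination), had 221 pNK and 7 uNK reads, a 33.4-fold lower level (15.9 to 84.0). miR-1814 had 51 and 9 reads and was 5.99-fold lower (2.92 to 13.8). miR-2411-3p, in UBAP2L, a gene for an RNA-binding protein of stress granules, had 24 and 155 reads and was 6.11-fold higher (3.96 to 9.82). miR-2332, in UTP6, a gene for a factor of ribosome assembly, had 39 and 146 reads and was 3.54-fold higher (2.47 to 5.18). These last 2 were the only high-numbered miRNAs higher in uNK that do not belong to the DLK1-DIO3 list. Their folds were smaller than those of the 5 entries of that list for which a fold could be computed, although the interval of miR-2411-3p overlapped those of 4 of these 5, all but miR-3958-3p.

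All 6 high-numbered miRNAs of the DLK1-DIO3 list were higher in uNK, beside 38% of all 590 listed miRNAs. This region carries a long cluster of miRNA genes expressed from the maternal chromosome, on which the miRNAs are thought to come from one long transcript. Their summed level was 8.08 RPM in pNK (243 reads) and 97.0 RPM in uNK (3083 reads), a 12.0-fold difference (10.5 to 13.7). They took 0.603% of the high-numbered reads in pNK (0.529 to 0.683%) and 42.8% in uNK (41.6 to 43.9%). With miR-3955-3p at its bound, the median fold over the 6 was 13.5.

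miR-3959-5p led them, with 157 reads in pNK and 1776 in uNK, or 5.22 and 55.9 RPM. It was 10.7-fold higher in uNK (9.09 to 12.7), and its 3p arm, with 57 and 680 reads, was 11.3-fold higher (8.60 to 15.1). The arms of miR-3959 thus had nearly the same fold. miR-3958-3p had 19 and 409 reads and was 20.4-fold higher (12.9 to 34.2). miR-1197-3p had 7 and 119 reads and was 16.1-fold higher (7.57 to 40.9). miR-3955-5p had 3 and 76 reads, a ratio of 24.0 (7.90 to 119). miR-3955-3p had 0 and 23 reads and was at least 7.25-fold higher by the same floor, with an exact interval that starts at 5.44. Apart from the pair of miR-3958-3p and miR-3959-5p, whose intervals do not overlap, the intervals of the 5 computed folds overlapped.

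In the goat gene table the 4 precursors of these miRNAs stand in one chain of 39 miRNA genes, all of which had a listed miRNA. The other genes of the chain gave 47 listed mature miRNAs, all of them higher in uNK. miR-3955 is the first gene of the chain, followed by miR-379. On the log2 scale of RPM plus 1, miR-3955-5p stood at 1.62 and miR-379-5p at 3.92. miR-1197-3p stood at 1.94, between miR-411b-5p at 3.47 and miR-323a-3p at 1.80. miR-3958-3p stood at 3.09, between miR-495-3p at 3.07 and miR-376e-3p at 3.62. miR-3959-5p stood at 3.19, between miR-655 at 3.18 and miR-487a-3p at 2.96. The added 1 RPM lowers these values for scarce miRNAs such as miR-3955-5p.

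By fold the high-numbered entries of the chain lay within the range of the others. The median fold was 16.1 over the 5 high-numbered miRNAs with reads in both libraries and 14.3 over the 45 others with reads in both, whose folds ran from 5.51 to 302. The pNK reads of all 6 were 0 to 8.84% of their uNK reads, with a median of 5.26%, beside a median of 6.46% for the 47 others. By level in uNK the 6 stood between the 14th and the 50th of the 53 listed mature miRNAs of the chain. The summed level of the stromal markers was 14.8-fold higher in uNK, and those of the epithelial and muscle markers 14.0-fold and 12.4-fold higher. The endothelial and red cell markers differed by less, at 5.97-fold and 3.01-fold higher. The part of these cell types in the result was not tested.

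**Figure D4:**
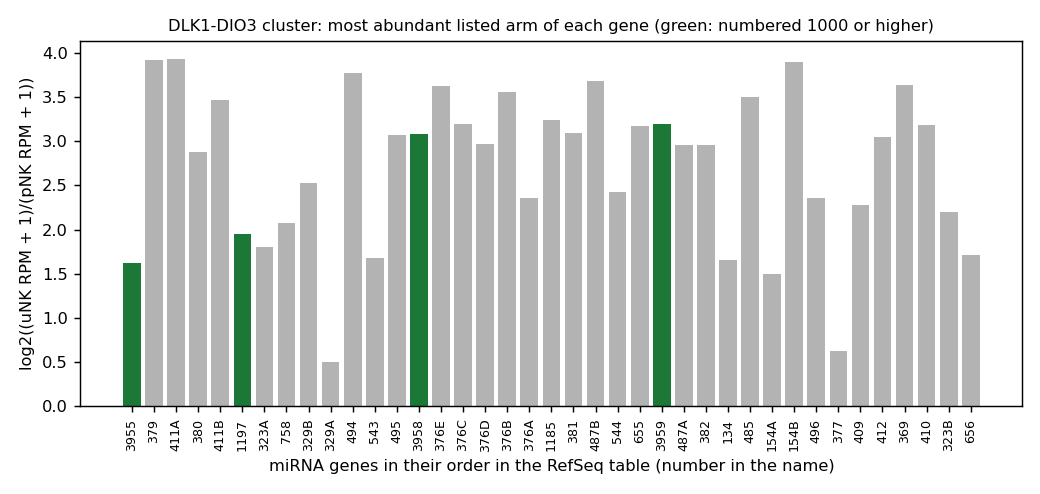
log2((uNK RPM + 1)/(pNK RPM + 1)) of the most abundant listed arm of each of the 39 miRNA genes of the DLK1-DIO3 chain, in their order in the gene table; green bars are the 4 genes numbered 1000 or higher. All bars are above 0, and the green bars run from 1.62 for miR-3955 to 3.19 for miR-3959.

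Outside this chain most of the high-numbered miRNAs were lower in uNK, while the other annotated miRNAs were divided almost evenly. Of the 17 high-numbered miRNAs outside it, 15 were lower (88.2%), and of the 244 others outside it, 129 were lower (52.9%). The 17 include both arms of miR-1306, miR-1307 and miR-1388, so they are not independent genes. With at least 100 reads in the higher library, 10 of 12 and 107 of 200 were lower. The lower ones passed this minimum through pNK, where they are high. The chain, all of it higher in uNK, was set apart after the data were seen, so these counts are a description. The lymphocyte and myeloid markers were lower in uNK as well, at 111-fold and 1356-fold lower summed levels, and their part in the result was not tested.

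Of the 18 precursors, 17 could be placed in the gene table. Counting only genes with a listed miRNA, 14 of these had no other miRNA gene within 10 kb, among them miR-3955, which begins the DLK1-DIO3 chain, and miR-2411. Of the 17, 10 lie in a protein-coding gene, 8 of them with a miRNA lower in uNK and 2 with one higher. None of the 10 is in the DLK1-DIO3 chain, and 88.2% of all high-numbered miRNAs outside that chain were lower. Of the precursors placed outside a protein-coding gene, miR-1388, miR-1814 and miR-2284c were lower and the 4 of the chain higher. The table gives no strand, so the direction of transcription relative to the host is not known here. Within 10 kb, the remaining 3 precursors formed 41 pairs with other listed miRNA genes, all in the DLK1-DIO3 chain and all with the same direction in both genes. Within 50 kb there were 134 pairs, of which 133 shared their direction, all of them in the DLK1-DIO3 chain. All genes of that chain were higher in uNK, so its pairs are not separate observations. The exception was miR-2411, higher in uNK, beside miR-190b, which counted 121 pNK and 26 uNK reads and was 4.92-fold lower (3.20 to 7.83).

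Both arms were listed for 5 of the precursors, and in all 5 the arms had the same direction. The same held for 83 of the 89 other annotated precursors with both arms listed. How the libraries are scaled does not enter the share of the 5p arm. For miR-1306 it was 79.3% in pNK (77.2 to 81.2%) and 52.9% in uNK (35.1 to 70.2%), with 34 reads of both arms in uNK. The odds of a 5p read were 3.39-fold higher in pNK (exact conditional 95% interval 1.60 to 7.14). For miR-1307 the share was 4.31% in pNK (3.95 to 4.69%) and 5.52% in uNK (4.61 to 6.56%), and the odds were 1.30-fold higher in uNK (1.05 to 1.59). For miR-1388 it was 1.40% in pNK (1.24 to 1.58%) and 2.48% in uNK (1.58 to 3.70%), with odds 1.79-fold higher in uNK (1.11 to 2.76). In these 3 precursors the arm that dominated in pNK took a smaller share of the uNK reads. The intervals of the odds ratio left out 1, but they cover counting error only and are no test between the groups. For miR-3959 the share was 73.4% in pNK (66.9 to 79.2%) and 72.3% in uNK (70.5 to 74.1%), with an odds ratio, pNK over uNK, of 1.05 (0.763 to 1.47). For miR-3955 it was 76.8% in uNK (67.2 to 84.7%), and in pNK 3 reads of 3 were from the 5p arm, which allows shares down to 29.2%. Among the other annotated precursors with both arms listed, the log2 ratio of the arms differed by at least 1 between the libraries in 52 of 89. Among these 5 it did in 2, miR-1306 and miR-3955, the latter on 3 reads in pNK. The median absolute difference was 0.87 over these 5 and 1.11 over the 89 others.

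**Figure D5:**
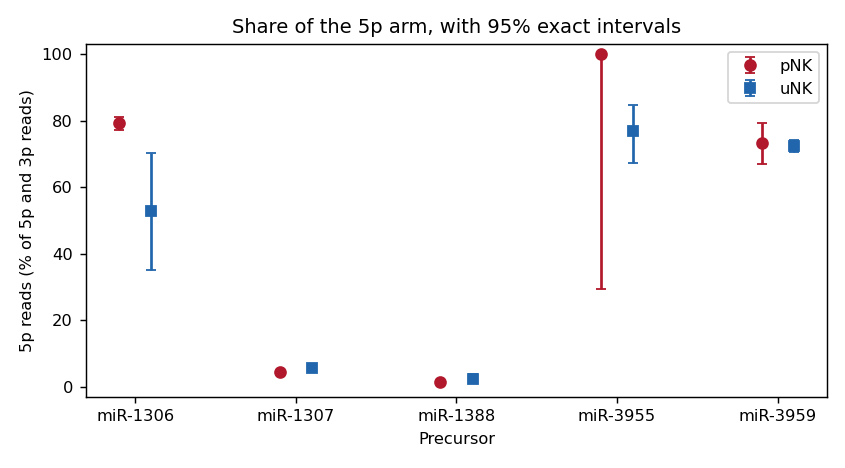
Share of 5p reads among the reads of both arms, in percent, for the 5 precursors with both arms listed, in pNK (circles) and uNK (squares), with exact 95% intervals as bars. miR-1388 and miR-1307 gave almost only 3p reads in both libraries, and miR-1306 stood at 79.3% in pNK and 52.9% in uNK.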

How the data were processed

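Small RNA reads of 1 uNK and 1 pNK library were analysed from a table of the authors' comparison, named for DEGseq and a filter on differential expression. For the aligner, the build and the annotation, the sources used here give nothing. Per the file headers, the deposited table holds read counts, expression values that behave as RPM (reads per 1000000 reads of the library, 0 reads written as 0.001), the authors' log2 ratio, and p-values and q-values. The smallest absolute log2 ratio of the deposited table is 1.01 and its largest q-value 0.000815; miRNAs that are not listed were not analysed here. The authors' log2 ratio lies 0.35 above that of the RPM values for each of the high-numbered miRNAs with reads in both libraries.

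Groups come from the source names. RPM was recomputed from counts and the totals implied by miRNAs with at least 5000 reads, and it differed from the deposited RPM of these miRNAs by at most 0.00484. Folds are ratios of RPM with exact Clopper-Pearson 95% intervals; a library at 0 was set at a floor of 3 reads (0.0998 RPM in pNK, 0.0944 RPM in uNK). On data simulated for 590 miRNAs with counting error alone, 95.9% of intervals held the true fold. The simulated pNK mean was at least 10 reads, so miRNAs with fewer pNK reads were not covered. Neither variation between goats nor the selection of called miRNAs was simulated. List medians use log2 of RPM plus 1. Arm shares were taken where each arm had 10 reads or more in all, and their log2 ratios add 0.5 reads. miRNA gene order, neighbours and host genes come from the RefSeq table of the goat assembly ARS1.2. Named were miRNAs with at least 100 reads or with 0 reads in a library, both-arm precursors and the DLK1-DIO3 and miR-2284 lists; the other 2 (miR-1271-3p and miR-1814) are given beside them, since every member is shown. Members and lists were chosen with earlier results of these data known. The work used Python 3.11.15, numpy 2.4.6, pandas 2.3.3, scipy 1.17.1, matplotlib 3.10.9 and, for TMM, edgeR 4.0.16 in R 4.3.3.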

Additional observations from a re-analysis of the deposited data

How the results depend on the processing

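No paired analysis was possible because there is only 1 library in a group, which also means that none could be left out. The summed level ratio of the high-numbered miRNAs, uNK over pNK, was 0.169 as reported, 0.215 with the totals of the listed miRNAs, 0.106 with the median ratio and 0.283 with TMM, each computed only on miRNAs called different. These scalings shift log2 values by 0.35, -0.67 and 0.74. The ratio was 0.0974 without the DLK1-DIO3 list and 0.266 without miR-1388-3p, both chosen after the data were seen. Without that list 2 miRNAs, in place of 8, were higher in uNK. No direction turned under the 3 scalings or with pseudocounts of 0.5 and 5 RPM, but none could have turned. A pseudocount does not change the sign of a log2 ratio. Without a pseudocount, and with 0 reads at the bound, the values nearest to no difference were 1.82 and -1.50. Both exceed the shifts of the scalings in size, so these settings are no check of the directions. The number higher was 6 to 8 and the number lower 10 to 15 under the other alternatives run. The median log2 value ran from -2.53 without a pseudocount (0 reads at the bound, chosen after the data were seen) to -0.50 with 5 RPM added, and was -2.30 with at least 100 reads. Neighbours with one direction numbered 41 of 41 pairs within 10 kb and 133 of 134 within 50 kb, all of them in the DLK1-DIO3 chain. Seed groups, sequence features and the alternative without near-identical copies were not run, since no sequence table was used here. Depth limits miR-3955-3p and miR-2284c, at 0 reads in a library, to bounds.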
